A study of Phyllostachys edulis with 12 samples.

Results

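The genes described here had a lower transcript level within 1 h of moving moso bamboo (Phyllostachys edulis) seedlings to -2 °C. Members were chosen on measured values. A gene had to average at least 3 CPM (counts scaled to a library total of 1000000) in the controls. At 0.5 h or at 1 h, its mean then had to be at most 0.5 times the control mean, with every cold library below the lowest control library. This rule gave 100 members among the 25236 genes that reached the control minimum, out of 47091 genes in the table, or 0.396% of those eligible. Of these, 51 met the rule at 0.5 h (0.202% of the genes that reached the minimum), 60 at 1 h (0.238%) and 11 at both times. The values at 0.5 h, at 1 h and in the controls therefore describe the choice and test nothing.

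Whole seedlings at 3 weeks of age and the 3-leaf stage were taken untreated (3 libraries) or after 0.5 h (3 libraries), 1 h (3 libraries) or 24 h (2 libraries) in a freezing chamber at -2 °C. Light and day length were the same for treated and control seedlings, and all had been raised in a green house. No genotype or accession is named in the labels, and they do not say whether a library is 1 plant or a pool. Library totals lay between 29304206 and 34543663 counts. The table pairs its identifiers with no gene names, so no function is given for any member and the tissue could not be checked against marker genes.

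Moso bamboo is a large woody grass. In plants, chilling and freezing set off calcium and hormone signals within minutes, and transcription factors of the CBF family then raise cold-responsive genes over hours, while many genes of growth and metabolism are turned down. A transcript level can drop only as fast as existing RNA decays once synthesis slows, and transcripts of regulatory genes are often short-lived. In whole seedlings, fewer cells of a type and less RNA per cell cannot be told apart.

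At 24 h, 43 of the 100 members had stayed low, 14 had recovered and 43 lay between. Stayed low means that the 24 h mean was at most 0.5 times the control mean with both 24 h libraries below the lowest control. Recovered means that both 24 h libraries were at or above the lowest control. Among all 25236 genes with the same control minimum, 6.21% met the stayed-low condition at 24 h, 42% met the recovered condition and 51.8% lay between. The 24 h libraries played no part in the choice of members, but the controls did, and genes picked for high controls tend to look low in any other group. The larger share of members that stayed low was therefore not tested as a property of these genes.

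Counts by class at 24 h are given here by the time of the early low. Of the 11 members that met the rule at both early times, 7 stayed low, 4 lay between and 0 recovered. The 40 members that met it at 0.5 h only gave 17 that stayed low, 19 between and 4 recovered. The 49 that met it at 1 h only gave 19, 20 and 10. The median ratio of the 24 h mean to the control mean was 0.192 for members low at both times, 0.477 for 0.5 h only and 0.546 for 1 h only, against 0.899 over all genes with the control minimum. The tests used TMM scaling, which by construction centres most genes near no change. With TMM-scaled CPM, 39 of the 100 members stayed low and 16 recovered. The differences between the sets were not tested. In 18 members all 8 cold libraries, at every time, lay below the lowest control, against 0.757% of the genes with the control minimum. The choice of members for no overlap at an early time takes part in that count.

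**Figure D1:**
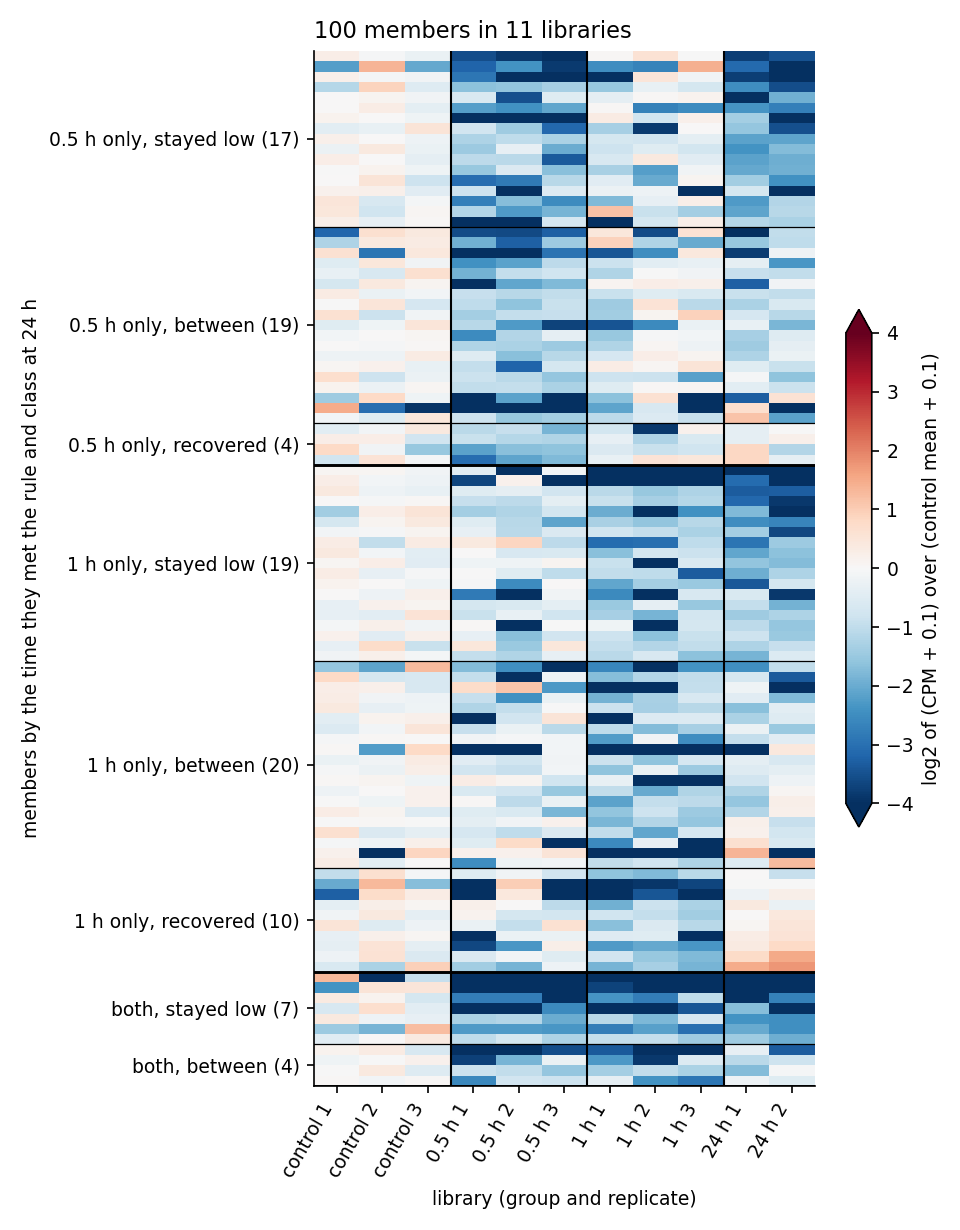
Heat map of the 100 members (rows) in 11 libraries (columns), coloured by the log2 ratio of CPM to the control mean with 0.1 CPM added to both; colours end at -4 and 4. Rows are grouped by the time at which the rule was met and by class at 24 h, with the number of members in brackets. In 15 members at least 1 library held 0 counts, and such cells lie at the lower end of the scale.

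Among the members that stayed low, the median 24 h mean was 0.215 times the control mean. The ratio ranged up to 0.471 and down to 0, in members with no counts at 24 h. The 14 recovered members had a median ratio of 1.15, from 0.762 to 3.12. The 43 members between the classes had a median of 0.62. In 27 of these 43, 1 of the 2 libraries at 24 h reached the lowest control and the other did not, and in 16 both libraries lay below it while the mean was above 0.5 times the control mean. Replicate 1 was the higher one in 14 of the 27 and replicate 2 in 13.

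**Figure D2:**
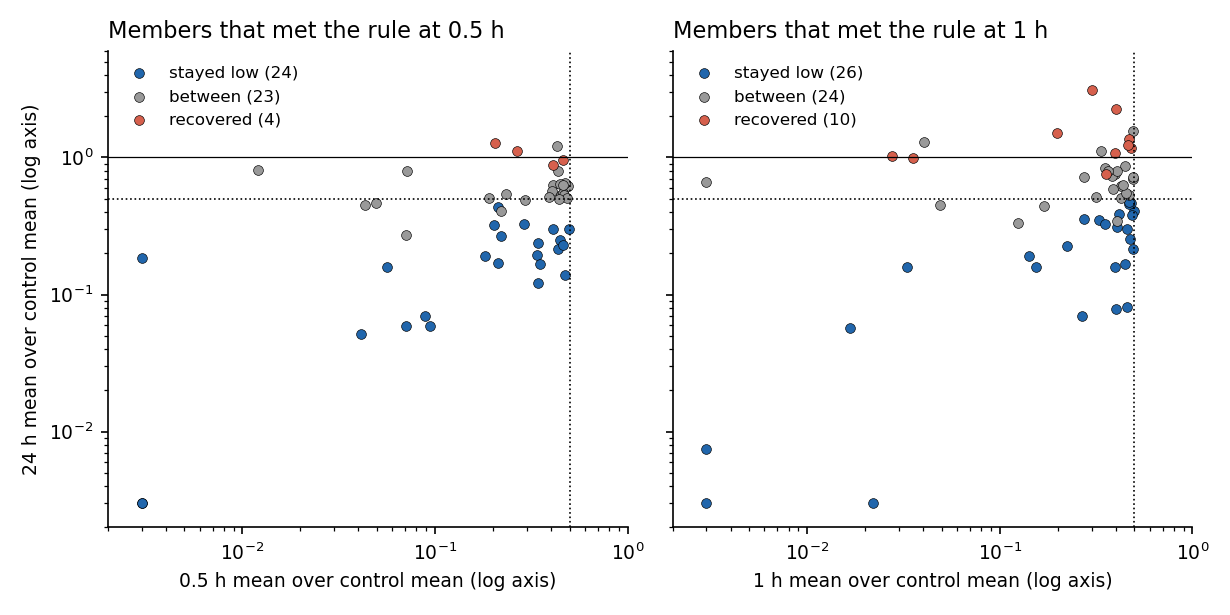
Ratio of the 24 h mean to the control mean (vertical, log axis) against the ratio at the early time (horizontal, log axis) for the 51 members that met the rule at 0.5 h (left) and the 60 at 1 h (right); 1 point is 1 member, ratios under 0.003 are drawn at 0.003, and dotted lines mark 0.5. Points are coloured by class at 24 h: 24 and 26 members stayed low, 23 and 24 lay between, and 4 and 10 recovered.

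edgeR's quasi-likelihood test, fitted to all 39640 genes with enough counts, called 12 of the 100 members lower at 24 h than in the controls and 1 higher. Over all genes tested, 4.34% were called lower and 3.25% higher. The controls helped choose the members, which tends to make them look lower at 24 h, here and for each gene below. All 100 members passed the filter on low counts. All 12 belong to the members that stayed low, a class defined on the same contrast, and the other 31 of that class were not called. Without regard to the threshold, the members' median log2 fold change at 24 h was -0.89, against -0.012 for all genes tested. The choice of members on high controls also pushes this median downward. The 12 became 7 without 24 h replicate 1 and 4 without 24 h replicate 2. DESeq2 called 19 members lower and 2 higher, against 6.93% and 5.72% of the genes to which it gave an adjusted p.

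Of the members that stayed low, 4 were also called lower at 24 h than at 1 h. PH01000068G1380 had 9.46, 9.02 and 9.59 CPM in the control libraries, 4.91, 4.52 and 7.07 CPM at 0.5 h, 5.04, 3.64 and 4.18 CPM at 1 h, and 0.968 and 0.554 CPM at 24 h. Every cold library lay below every control, and both 24 h libraries lay below all the others. It averaged 0.761 ± 0.293 CPM at 24 h (SD, n = 2) and 9.36 ± 0.302 CPM in the controls (SD, n = 3), which is -3.45 on the log2 scale (standard error 0.32, adjusted p = 0.00013 by edgeR). Against 1 h the log2 fold change was -2.27 (standard error 0.31, adjusted p = 0.0021 by edgeR).

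PH01000001G2580 showed the same order with fewer counts. It had 5.15, 3.33 and 3.16 CPM in the control libraries, 2.76, 2.98 and 2.26 CPM at 0.5 h, 1.79, 1.29 and 1.6 CPM at 1 h, and 0.3 and 0.308 CPM at 24 h. The 24 h values rest on 9 and 10 counts. The groups did not overlap at any step. At 24 h the log2 fold change was -3.49 against the controls (standard error 0.35, adjusted p = 0.00021 by edgeR) and -2.13 against 1 h (standard error 0.34, adjusted p = 0.0045 by edgeR). With the other libraries left out of the model, the second call was lost (-2.12, adjusted p = 0.055 by edgeR).

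PH01000031G1980 met the rule at 0.5 h and was lowest at 24 h. Its controls had 5.95, 5.21 and 4.48 CPM, its 0.5 h libraries 2.18, 2.51 and 2.1 CPM, its 1 h libraries 3.18, 3.03 and 3.96 CPM, and its 24 h libraries 1.1 and 1.14 CPM. The 1 h libraries lay between those of 0.5 h and the controls, with no overlap. The log2 fold change at 24 h was -2.05 against the controls (standard error 0.24, adjusted p = 0.00065 by edgeR) and -1.38 against 1 h (standard error 0.24, adjusted p = 0.0067 by edgeR). The second was not called without 24 h replicate 1 or 2 (-1.38 in both, adjusted p = 0.052 and 0.051 by edgeR), nor with the other groups left out of the model (-1.37, adjusted p = 0.058 by edgeR).

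PH01221966G0010 was the fourth, and it alternated. It was low in every library at 0.5 h and 24 h and at the control level in every library at 1 h. Its controls had 3.75, 2.95 and 2.51 CPM, and its 1 h libraries 3.16, 4.59 and 3.03 CPM. At 0.5 h it had 0.171, 0.118 and 0.0927 CPM (5, 4 and 3 counts), and at 24 h 0.134 and 0.185 CPM (4 and 6 counts). This was the single member called lower at 0.5 h, at -4.53 on the log2 scale, where 0.00252% of all genes tested were called lower, but this contrast also chose the gene and is no test of it. At 24 h the log2 fold change was -4.07 against the controls (standard error 0.41, adjusted p = 0.0002 by edgeR) and -4.25 against 1 h (standard error 0.41, adjusted p = 0.00024 by edgeR), and the 1 h libraries took no part in its choice.

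There were 7 members with both 24 h libraries below every other library, among them PH01000068G1380, PH01000001G2580 and PH01000031G1980, a smaller share than the 21.2% of all genes with the control minimum. Their 24 h means were 0.0783 to 0.215 times the control means. In 13 members, against 6.69% of these genes, the group means dropped at each step, with the control highest, then 0.5 h, 1 h and 24 h, and in 4 of these both 24 h libraries lay below every 0.5 h and 1 h library. In all, 27 members had a 24 h mean below both early means, against 58.7% of these genes, and 14 had one above the control mean, against 31.7%. The low early values and the high controls that chose the members take part in these counts.

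**Figure D3:**
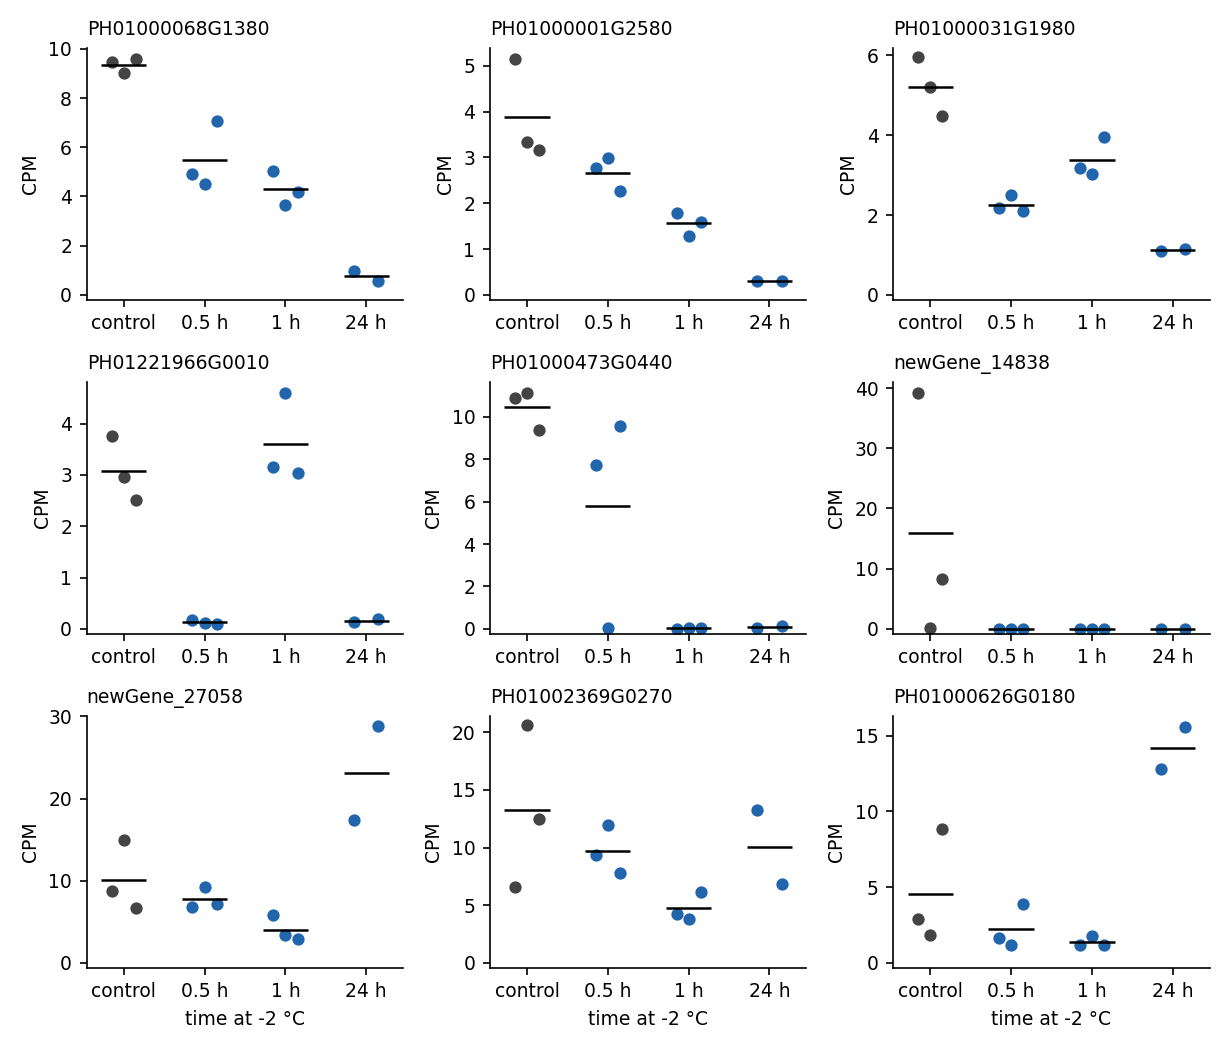
CPM (vertical, linear axis from 0) of 9 members in the controls (grey) and at 0.5 h, 1 h and 24 h at -2 °C (blue); 1 point is 1 library and the bar is the group mean. The top row is lowest at 24 h, the middle row holds an alternating member and 2 at or near 0 counts at 24 h, and the bottom row holds 3 recovered members.

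Members were also named by a fixed rule for large early differences among the 11 that stayed low with a control mean of at least 10 CPM. PH01000473G0440 had control values of 10.9, 11.1 and 9.36 CPM. At 1 h it was down to 0, 0.0613 and 0.0319 CPM (0, 2 and 1 counts). At 24 h it had 0.0334 and 0.123 CPM (1 and 4 counts). Its 0.5 h libraries were split: replicates 1 and 3 had 7.71 and 9.58 CPM, close to the controls, and replicate 2 had 0.059 CPM from 2 counts. The log2 fold change at 24 h was -6.81 (standard error 1.58, adjusted p = 0.025 by edgeR). The difference was called under 14 of 19 alternative settings. The settings that lost the call include those without control replicate 1 or 2 (edgeR adjusted p = 0.051 and 0.053). They also include those without 24 h replicate 1 or 2.

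newGene_14838 had counts in the controls alone. Its control libraries held 1260, 7 and 254 counts (39.1, 0.208 and 8.37 CPM), and all 8 cold libraries held 0. With a floor of 3 counts per library, the 24 h mean was at least 165-fold lower than the control mean. The controls lay far apart, and edgeR did not call the 24 h difference (adjusted p = 0.11). It was called without control replicate 2, the one with 7 counts (edgeR adjusted p = 0.022).

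newGene_16533 came closest to it, with 49, 400 and 351 counts in the controls and 0 in 7 of the 8 cold libraries. The exception was 1 h replicate 1, with 19 counts. At 24 h it was at least 86.6-fold lower than in the controls, by the same floor, and edgeR called it lower (adjusted p = 0.044). That call held under 13 of 19 alternative settings. The settings that lost it include those without control replicate 2 or 3 (edgeR adjusted p = 0.1 and 0.081). They also include those without 24 h replicate 1 or 2, and DESeq2 (adjusted p = 0.087).

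Of the 11 members low at both early times, newGene_16533, PH01003725G0090 and newGene_28350 were called lower at 24 h. PH01003725G0090 had 5.24, 3.45 and 3.16 CPM in the control libraries, 1.57, 1.68 and 0.927 CPM at 0.5 h, 1.77, 1.07 and 2.42 CPM at 1 h, and 0.668 and 0.646 CPM at 24 h. Its log2 fold change at 24 h was -2.41 (standard error 0.44, adjusted p = 0.0079 by edgeR), not called without 24 h replicate 1 or 2 (edgeR adjusted p = 0.06 and 0.073). newGene_28350 had 3.04, 4.2 and 5.37 CPM in the control libraries, 2.01, 2.54 and 1.73 CPM at 0.5 h, 2.14, 2.11 and 1.5 CPM at 1 h, and 1.5 and 1.02 CPM at 24 h. The early and late cold libraries of this gene overlapped. Its log2 fold change at 24 h was -1.58 (standard error 0.36, adjusted p = 0.023 by edgeR). The call held under 13 of 19 alternative settings. The settings that lost it include those without control replicate 2 or 3 (edgeR adjusted p = 0.055 and 0.057). They also include those without 24 h replicate 1 or 2.

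Of the 100 members, 3 had both 24 h libraries above every other library, near the 5.02% of all genes with the control minimum. The choice of members for high controls takes part in this count. All 3 were among the 14 recovered members. newGene_27058 had 8.71, 15 and 6.73 CPM in the control libraries, 6.79, 9.27 and 7.17 CPM at 0.5 h, 5.85, 3.43 and 2.9 CPM at 1 h, and 17.4 and 28.8 CPM at 24 h. Both 24 h libraries lay above every other library, also in PH01000626G0180 and PH01000235G0620. newGene_27058 was higher at 24 h than at 1 h by 2.72 on the log2 scale (standard error 0.37, adjusted p = 0.002 by edgeR), a call that held under each of the 19 alternatives. Its low 1 h libraries chose this gene, which pushes that difference upward. Against the controls the log2 fold change was 1.35 (standard error 0.36, adjusted p = 0.045 by edgeR), and this call held under 7 of the 19, with an adjusted p up to 0.29 without 24 h replicate 2.

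PH01000626G0180 had 2.91, 1.84 and 8.87 CPM in the control libraries, 1.67, 1.18 and 3.89 CPM at 0.5 h, 1.19, 1.75 and 1.18 CPM at 1 h, and 12.8 and 15.6 CPM at 24 h. The 0.5 h libraries overlapped the controls, and the 24 h libraries stood above both. Its 24 h mean was 3.12 times the control mean, a difference that edgeR did not call (log2 fold change 1.79, SE 0.61, adjusted p = 0.1). Against 1 h the log2 fold change was 3.58 (standard error 0.64, adjusted p = 0.0078 by edgeR), called under each of the 19 alternatives, with the same limit that low 1 h libraries chose the gene.

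PH01002369G0270 and newGene_27058 were the 2 recovered members with a control mean of at least 10 CPM. PH01002369G0270 had 6.57, 20.6 and 12.5 CPM in control libraries. Its 1 h libraries had 4.23, 3.77 and 6.16 CPM. At 24 h it had 13.3 and 6.86 CPM, inside the range of the controls. Its log2 fold change at 24 h was -0.23 against the controls (standard error 0.44, adjusted p = 0.81 by edgeR) and 1.32 against 1 h (standard error 0.44, adjusted p = 0.085 by edgeR). PH01000361G0630 met the rule at 0.5 h only, and all its 1 h libraries lay above the lowest control. Its CPM was 0.853, 1.74 and 2.22 at 0.5 h and 6.43, 11.6 and 10.8 at 1 h. At 24 h it had 13.9 and 6.12 CPM, beside 4.59, 11.5 and 7.38 CPM in the controls. edgeR did not call its difference at 1 h against 0.5 h (log2 fold change 2.48, SE 0.47, adjusted p = 0.51). The low 0.5 h libraries chose this gene, which pushes that difference upward.

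Across the members, edgeR called 8 higher and 4 lower at 24 h than at 1 h, where 4.65% of all genes tested were called higher and 5.06% lower. Of the 8, 7 were low at 1 h only and 1 at both times. At 24 h against 0.5 h it called 4 higher and 2 lower, where 1.89% and 3.18% of all genes tested were called. The 4 were PH01000361G0630, PH01000626G0180, newGene_27058 and PH01005309G0060, and the 2 were PH01000001G2580 and PH01000068G1380. Because the early libraries were picked for low values, a member tends to look higher at 24 h than at the early time that chose it. DESeq2 called 6 higher and 6 lower at 24 h than at 0.5 h and 12 higher and 8 lower at 24 h than at 1 h, against 3.84% higher and 5.59% lower, and 7.33% higher and 7.69% lower, of the genes with a DESeq2 adjusted p. edgeR's counts of 8 and 4 higher became 4 and 1 without 24 h replicate 1. The 8 became 4 without 1 h replicate 3, and the 4 became 1 without 0.5 h replicate 1.

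Next, 24 h is set beside the early time at which a member did not meet the rule. This comparison is also tied to the choice, since members that met the rule at both times are left out. That tends to raise the mean at the early time compared. Among the 40 members low at 0.5 h only, 31 had a 24 h mean below the 1 h mean, and 70.7% of all genes with the control minimum did so. Among the 49 low at 1 h only, 30 had a 24 h mean below the 0.5 h mean, against 64.4% of all such genes. Both shares are near the background, and CPM at 24 h runs low for most genes on this scale, as the median ratio of 0.899 shows.

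The early time that did not choose a member is described here beside the same controls. Members that met the rule at both times are left out of both sets, which takes part in the counts below. Of the 40 members low at 0.5 h only, 5 had all 3 libraries at 1 h at or above the lowest control, 17 had 2 of them there, 14 had 1 and 4 had none. Over all genes with the control minimum, 54.5% had all 3 there, 41.5% had 1 or 2 and 4.01% had none. Of the 49 low at 1 h only, 5 had all 3 libraries at 0.5 h at or above the lowest control, 10 had 2, 27 had 1 and 7 had none. Over all genes with the control minimum these shares were 48.4% for all 3, 46% for 1 or 2 and 5.54% for none. The 0.5 h mean of these 49 was below the control mean in 45, against 60.3% of all genes with the control minimum, in a comparison that shares the controls with the rule.

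Libraries of the same group lay farther apart in many members than in most genes, which is given as a description with no test. At 24 h, whose libraries the rule did not use, 44 members differed by at least 2 times between libraries, against 3.18% of the genes with the control minimum. The higher library was at least 3 times the lower in 27 of the 100 members, against 1.2% of the genes with the control minimum (0.1 CPM, about 3 counts, was added to each value). The limit of 5 times was reached by 18 members, against 0.638%. Among genes with a control mean of 3 to 30 CPM, a range that holds 92 of the members, the shares of genes at 2, 3 and 5 times were 4.01%, 1.5% and 0.777%. The median ratio of the higher to the lower 24 h library was 1.8 in the members and 1.14 over all genes with the control minimum. Genes were not matched on their 24 h level, where the members' median ratio to the control mean was 0.479, against 0.899. Whether this lower level, or the choice of members, takes part in the spread at 24 h was not tested.

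**Figure D4:**
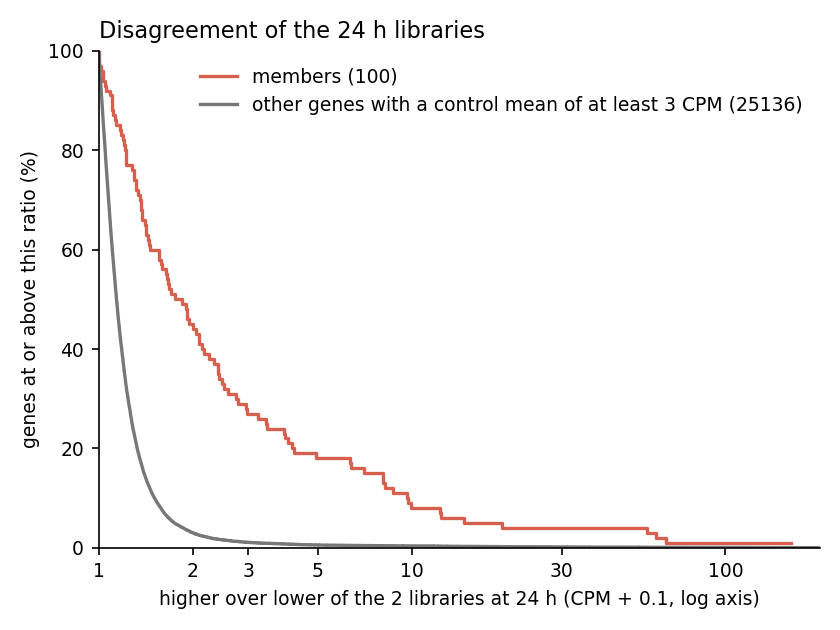
Share of genes (vertical, percent) whose 2 libraries at 24 h differ by at least the ratio on the horizontal log axis, for the 100 members (red) and the other genes with a control mean of at least 3 CPM (grey). At a ratio of 3 the members' curve stands at 27%, and the curve of the other genes lies close to 0.

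The same held in the other groups, where the choice of members takes part. A spread of at least 5-fold was found in 13 members in the controls, 27 at 0.5 h and 29 at 1 h, against 0.919%, 0.971% and 1.02% of the genes with the control minimum. In all, 50 members had such a spread in at least 1 of the 4 groups, against 2.09% of these genes. Among the 27 members spread at 0.5 h, replicates 1, 2 and 3 were the lowest in 9, 10 and 8, and among the 29 at 1 h they were the lowest in 7, 12 and 10. At least 1 library held 0 counts in 15 members, against 0.408% of these genes.

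PH01000653G0090 shows such a split. It had 166, 111 and 144 CPM in the control libraries, 0.751, 0.59 and 87.9 CPM at 0.5 h, 2.49, 85.3 and 166 CPM at 1 h, and 63.5 and 57.7 CPM at 24 h. Of the cold libraries, 3 held 20 to 86 counts and the other 5 held 1875 to 5193. It met the rule at 0.5 h, and edgeR's adjusted p there was 1. At 24 h it counts as stayed low, with a log2 fold change of -1.04 (standard error 1.68, adjusted p = 0.77 by edgeR).

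PH01001648G0010 had the most counts of any member. It had 539, 27.6 and 864 CPM in the control libraries, 540, 543 and 688 CPM at 0.5 h, 20.3, 14.7 and 22.8 CPM at 1 h, and 1219 and 18.7 CPM at 24 h. High and low libraries occurred in both the control and the 24 h group, so only 0.5 h (all high) and 1 h (all low) were uniform. edgeR called it higher at 24 h than at 1 h (log2 fold change 5.25, SE 1.41, adjusted p = 0.041). Leaving out 24 h replicate 1 gave 0.15 (adjusted p = 0.97 by edgeR). PH01005309G0060 also rested on 1 library at 24 h, with 101, 117 and 58.9 CPM in the control libraries, 1.95 to 9 CPM in all 6 early libraries, and 73.6 and 9.04 CPM at 24 h. Its log2 fold change at 24 h against 1 h was 3.41 (standard error 0.88, adjusted p = 0.035 by edgeR), and 1.18 without 24 h replicate 1 (edgeR adjusted p = 0.5).

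Members with tight groups were few. In 10 of the 100, every group lay within 2-fold, as it did in 86.5% of the genes with the control minimum. Of these 10, 6 stayed low at 24 h, 3 lay between and 1 recovered. PH01000068G1380, PH01000001G2580, PH01000031G1980 and PH01221966G0010 are 4 of the 6.

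Members had lower control levels and shorter listed gene models than the typical gene. Their median control mean was 6.08 CPM, against 16 CPM over the genes with the control minimum, and 68 of the 100 lay between 3 and 10 CPM. They made up 0.789% of the genes in that range and 0.259% of those from 10 to 30 CPM. Members listed as newGene, the table's name for gene models without a PH01 identifier, numbered 33, against 22.2% of the genes with the control minimum. Of these 33, 11 stayed low and 7 recovered, and of the 67 with a PH01 identifier 32 stayed low and 7 recovered. The median listed gene length was 3278 in the members and 6089 over the genes with the control minimum. Among newGene entries these medians were 3249 and 4039, and among PH01 entries 3290 and 6725. Lengths were not matched for control level, and the part of the rule in these differences was not tested. The part of the identifier before the letter G was shared with another member in 4 members.

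The rule's limits cut through a continuous range. At 0.5 h the ratio nearest the limit was 0.4983 inside it and 0.5047 outside, among genes without overlap, and at 1 h 0.497 and 0.5035. Another 65 genes at 0.5 h and 57 at 1 h had no overlap and a ratio from 0.5 to 0.6. The lowest control mean of a member was 3.03 CPM, and the highest among genes that missed only this minimum was 2.931 CPM. With the same conditions turned upward (at least 2-fold higher, no overlap), 70 genes were higher at 0.5 h and 62 at 1 h.

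edgeR called no member lower at 1 h than in the controls, where it called 0% of all genes tested lower. At an unadjusted p under 0.05, 52 members were lower at 1 h and 45 at 0.5 h, against 3.29% and 1.89% of all genes tested, a comparison that the rule fixed. DESeq2 called 10 members lower at 1 h and 9 at 0.5 h, against 0.14% and 0.0836% of the genes with a DESeq2 adjusted p. Between the early times, edgeR called 1 member higher at 1 h than at 0.5 h, PH01221966G0010 (log2 fold change 4.7), and none lower. The low 0.5 h libraries of this gene chose it. DESeq2 called 4 members higher and 4 lower. At an unadjusted p under 0.05 by edgeR, 19 members were higher and 19 lower. Both early groups chose members, which takes part in both directions. Over all genes tested, edgeR called 0.00252% higher and 0% lower. Of the genes with a DESeq2 adjusted p, 0.177% were called higher and 0.167% lower. At an unadjusted p under 0.05 by edgeR, 3.7% of all genes tested were lower, and the share higher is not given here.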

How the data were processed

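The deposited table gives 1 whole-number count per gene and library and a gene length, both as the authors made them. Per the submitters' processing notes, HISAT2 aligned the reads; the build, aligner version, counter, strand setting and handling of multiply placed reads are details not given in the sources used here. Values of near-identical or overlapping genes are therefore uncertain. Of 12 samples in 4 groups of 3, 11 matched a column by the code in their description. In all, 1 count column matched no label and was not used, and 24 h replicate 3 was not analysed here. The labels' codes skip a number that the columns hold, so if the columns were numbered apart from the labels, the 24 h libraries would be other replicates.

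CPM divides a count by the column total; the tests used TMM-scaled counts. R 4.3.3, edgeR 4.0.16 and DESeq2 1.42.0 were used, with limma 3.58.1 underneath. All 11 libraries entered 1 edgeR quasi-likelihood model of group means, after filterByExpr (39640 of 47091 genes), with Benjamini-Hochberg adjustment over all genes tested and a threshold of 0.05. Standard errors are the log2 fold change over the square root of F. The scripts were tested on simulated data. Replicates may be technical, so p-values measure only the spread between these libraries. Cold and hour of harvest, or any batch aligned with a group, cannot be told apart.

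The members, lists and tests were chosen with earlier results of these data known. The rule for named genes took 4 members with a control mean of at least 10 CPM: among those that stayed low, the one with the lowest ratio at 0.5 h and, from the rest, the one with the lowest ratio at 1 h, and likewise among those that recovered. The other identifiers were chosen after their values were seen.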

Additional observations from a re-analysis of the deposited data

Results flagged for a closer look

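Each of the following members differed between times in the cold by edgeR's test of that difference at an adjusted p under 0.05, which equals a test of whether the change from the control differs between the times, since the control cancels. The early libraries were used to choose the members. PH01221966G0010 differed by 4.7 on the log2 scale at 1 h against 0.5 h.

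At 24 h against 0.5 h the log2 differences were -2.99 for PH01000001G2580 and -2.72 for PH01000068G1380. They were 2.76 for PH01000361G0630, 2.78 for PH01000626G0180, 3.51 for PH01005309G0060 and 1.7 for newGene_27058. The calls for PH01000001G2580 and PH01000068G1380 held under each of 19 alternatives. The call held under 18 for PH01000361G0630, 15 for PH01000626G0180 and 16 for newGene_27058. For PH01005309G0060 the value ranged from 1.28 to 4.47 over 19 alternatives, of which 10 kept the call, with 1.28 without 24 h replicate 1 (edgeR adjusted p = 0.53).

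At 24 h against 1 h the log2 differences were -2.13 for PH01000001G2580, -1.38 for PH01000031G1980, -2.27 for PH01000068G1380 and -4.25 for PH01221966G0010. On the higher side they were 3.58 for PH01000626G0180, 5.25 for PH01001648G0010, 1.48 for PH01004668G0050 and 3.41 for PH01005309G0060. Among the newGene entries they were 1.67 for newGene_24446, 2.72 for newGene_27058, 1.5 for newGene_32818 and 3.15 for newGene_42575. Of 19 alternatives, 13 kept the call for newGene_24446, 19 for newGene_27058, 18 for newGene_32818 and 11 for newGene_42575. The call was kept in 17 for PH01004668G0050, 13 for PH01005309G0060 and 9 for PH01001648G0010. For PH01004668G0050 the value was 0.79 without 24 h replicate 1 (edgeR adjusted p = 0.15), and for PH01001648G0010 it was 0.15. Groups of 2 or 3 libraries are too small for an outlier test.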

How the results depend on the processing

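The rule gave 240 members with a control minimum of 1 CPM, 32 with 10 CPM, 41 with a stricter limit on the ratio to the control mean, 234 with no condition on overlap and 104 with TMM-scaled CPM, of which 95 were among the 100. Without 1 library it gave 140 to 184, since fewer libraries overlap less often: 184, 175 and 177 without control replicates 1 to 3, 152 (replicate 1) and 153 (replicate 2) when a 0.5 h library was dropped, 153 (replicate 1) and 160 (replicate 3) when a 1 h library was. The count that stayed low was 46 to 57 without 1 library, and 34 to 51 under the other planned settings. The recovered count was 9 to 28 without 1 library (9 without control replicate 1, 27 and 28 without 24 h replicates 1 and 2). In settings chosen after seeing the data, 36 stayed low and 9 recovered among the 80 members with controls within 3-fold, and 32 and 13 among the 73 with 24 h libraries within 3-fold.

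With the other groups left out of the model, members called lower were 5 at 0.5 h, 2 at 1 h and 19 at 24 h against the controls and 1 at 1 h against 0.5 h, and those called higher at 24 h than at 1 h were 5. Shares of all genes called are given here only for the main edgeR fit and for DESeq2. Counts under the other settings therefore show dependence on the setting and do not compare members with other genes. DESeq2, which gave no adjusted p for 5 members, called 9, 10 and 19 lower against the controls, 6 and 8 lower at 24 h than at 0.5 h and 1 h, and 4 lower and 4 higher at 1 h than at 0.5 h. Library size alone gave 4 members lower at 24 h than at 0.5 h. Without 1 library, members called lower against the controls numbered 1 to 3 at 0.5 h, 0 to 2 at 1 h and 4 to 16 at 24 h. The larger moves at 0.5 h and 1 h were 3 and 2 without 1 h replicate 1, 2 at 0.5 h without either 24 h library, and 1 at 1 h without 0.5 h replicate 2 or 1 h replicate 2. Members at 24 h against 0.5 h numbered 2 to 3 lower and 1 to 5 higher, and against 1 h 3 to 6 lower and 4 to 10 higher. At 1 h against 0.5 h they numbered 0 to 1 lower (1 without 0.5 h replicate 2, 1 h replicate 1 or 1 h replicate 2) and 1 to 2 higher (2 without 1 h replicate 1 or either 24 h library). The cause of these differences was not tested.

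With the replicate number as a block, 9 members were called lower at 24 h against the controls, in place of 12, and newGene_14838 was called (edgeR adjusted p = 0.01). Over all genes tested, libraries of the same number did not deviate together (correlations of deviations from -0.0435 to 0.0335). A link between them that touches few genes was not tested. Of 33 single-gene calls, 12 held under every alternative. The log2 fold change of PH01002369G0270 at 24 h against the controls, not called, changed sign to 0.23 without control replicate 2 and to 0.19 without 24 h replicate 2, and was -0.81 without 24 h replicate 1. Depth limits the precision of members with few counts, such as PH01000001G2580 with 9 and 10 counts at 24 h.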
